A study of Mus musculus with 9 samples.

Results

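The transcripts described here were counted in mouse testis poly(A) RNA before precipitation and after recovery with a control antibody. In the libraries recovered with the anti-ac4C antibody, no uniquely mapped read was counted for them. A gene was a member when it had 0 counts in the 3 acRIP libraries and a mean raw count of at least 40 in the 3 input libraries and of at least 40 in the 3 IgG libraries. This rule selected 159 of the 55401 genes in the table, and 14925 genes reached the floor of 40 in both control groups. The members were chosen by their counts in acRIP, input and IgG, so these counts are given as a description. No test was made of acRIP against either control. IgG was tested against input, since the rule set a floor on both groups but not their ratio.

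All libraries came from testes of wild-type male mice, and the methods name ICR as the wild-type strain. The age of the animals and the number of animals behind each library are not given in the sources used here. The inputs (n = 3) were poly(A) RNA without an antibody, the IgG-enriched group (n = 3) was RNA recovered on protein A beads with a rabbit isotype control, and the acRIP group (n = 3, labelled IP) was RNA recovered on the same beads with an antibody against N4-acetylcytidine (ac4C). An in vitro transcribed β-globin probe that carried ac4C was added to the poly(A) RNA before precipitation, and every library was made by Smart-seq2, which primes reverse transcription with oligo(dT) and amplifies the cDNA. Nothing in the labels says whether the replicates are separate precipitations, so p-values measure only the spread between these libraries, which may be technical. In bulk RNA, fewer cells of a type and less RNA per cell cannot be told apart.

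ac4C is an acetylated form of cytidine that the acetyltransferase NAT10 places in 18S rRNA, in some tRNAs and in mRNA. In acRIP-seq, a transcript that carries the mark is held by the antibody and a transcript without it should be washed away, while both may stick to beads without regard to the mark, which is what the IgG control measures. A read count of 0 in acRIP is therefore read against the count in IgG as well as in input.

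The input libraries held 22023925 to 31340090 counts, the IgG libraries 14647542 to 18786779 and the acRIP libraries 16025779 to 18639134. The depths of the IgG and acRIP groups overlapped. An acRIP library had counts for 22206 to 22402 genes and an IgG library for 26204 to 26874. Of counts from 1 to 20, 81.9% to 84.3% were even, so mates may have been counted singly. A count of 0 allows up to 3 counts, or 6 counts if 3 read pairs are meant, and this limit covers counting error alone, because reads copied by amplification do not each stand for a molecule. Markers of elongating spermatids (Prm1, Prm2, Tnp1, Tnp2 and Odf1) together took 17104 to 22135 CPM (the share of a library's counts, scaled to a fixed total) in every library, and markers of Leydig cells (Insl3, Cyp17a1, Star, Hsd3b1 and Cyp11a1) took 876 to 1076 CPM, so defining markers of testis were present. Of the 45 markers of testicular cell types, 0 were members, and 42 had counts in all 3 acRIP libraries. Some of the 45 did not pass the floor, and 1.07% of all genes past it were members. A result of 0 among so few markers is near that share. The Sertoli cell marker Rhox5 had no counts in any library, and Amh had at most 22. The 4 erythrocyte markers together took 677 to 886 CPM in acRIP and 151 to 207 CPM in the controls, but they did not move as one. The β-globin gene Hbb-bs had 2315 to 3095 counts in IgG and 10429 to 15975 in acRIP, while Alas2, an enzyme of heme synthesis, had 240 to 304 in IgG and 32 to 36 in acRIP. Hba-a1 had 450 to 482 counts in IgG and 388 to 498 in acRIP, and Slc4a1 had at most 2 in either group. The β-globin probe added before precipitation was of mouse sequence and carried ac4C, and its part in the Hbb-bs counts was not tested. The part of these markers in the result was not tested either.

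Zeros over single acRIP libraries are given as a description, since the rule requires 0 in all 3 and the replicates may be technical. Of the 14925 genes past the floor, 14617 had counts in all 3 acRIP libraries, 97 lacked them in 1 library, 52 lacked them in 2 and 159 lacked them in all 3. acRIP replicate 1 had 0 counts for 227 of these genes, and 159 of the 227 (70%) were also at 0 in both other acRIP libraries. The share was 71.6% of 222 genes for acRIP replicate 2 and 69.4% of 229 genes for acRIP replicate 3. Genes missing from a single acRIP library had few counts in the others, with a median of 4 and a highest value of 18.

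The same rule turned to the other groups selected almost no gene. Among 14119 genes with a mean of at least 40 in input and in acRIP, 1 had 0 counts in all 3 IgG libraries, the X-linked Spin2c, whose counts are uncertain because it has close copies, with 40 to 44 counts in input and 58 to 76 in acRIP. Among 13833 genes with a mean of at least 40 in IgG and in acRIP, 1 had 0 counts in all 3 input libraries, the olfactory receptor pseudogene Olfr647-ps1, with 227 to 284 counts in IgG and 835 to 1503 in acRIP. Both were named after their values were seen. These shares were 0.00708% for IgG and 0.00723% for input, against 1.07% for acRIP. Zeros were also commoner in acRIP over the whole table. An acRIP library had counts for 22206 to 22402 genes, an IgG library for 26204 to 26874 and an input library for 28552 to 29642.

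The share of genes without acRIP counts was highest where the IgG count was low. Of the 602 genes past the floor with an IgG mean from 40 to under 50, 55 (9.14%) were members. The members were 26 of 543 genes (4.79%) from 50 to under 60, 50 of 977 (5.12%) from 60 to under 80, 17 of 1518 (1.12%) from 80 to under 120, 10 of 1947 (0.514%) from 120 to under 200 and 1 of 2647 (0.0378%) from 200 to under 400. Of 6691 genes with an IgG mean of 400 or above, 0 were members and 0 lacked counts in any acRIP library. All genes past the floor with an IgG mean from 60 to under 80 had a median acRIP mean of 59.3. Up to the highest control means of a member (317 in input and 212 in IgG), 5199 genes passed the floor, of which 159 (3.06%) had an acRIP mean of 0, 84 (1.62%) a mean above 0 and up to 2, 234 (4.5%) a mean up to 10, 823 (15.8%) a mean up to 40 and 3899 (75%) a higher mean.

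**Figure D1:**
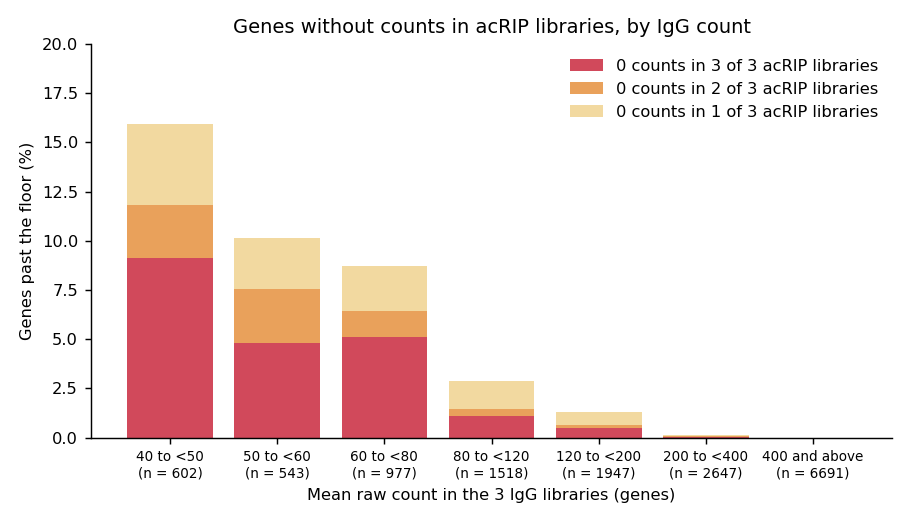
Share of genes past the floor (%, vertical axis) that had 0 counts in 3, 2 or 1 of the 3 acRIP libraries, in classes of the mean raw count in the 3 IgG libraries (horizontal axis, n genes in each class). The share at 0 in all 3 libraries is 9.14% in the lowest class and 0 among the 6691 genes of the highest class.

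All 159 members had counts in all 6 control libraries. Their lowest count in any control library was 14, and 155 had at least 20 counts in each of the 6. The mean input count of a member ranged from 40 to 317 with a median of 77, and the mean IgG count from 40 to 212 with a median of 58. Only 14 members exceeded a mean of 100 in both control groups, and 69 had a mean under 50 in at least 1 of them. Per length, the members lay low, with a median FPKM of 0.895 in input (0.0859 to 23.3) and 0.965 in IgG (0.186 to 12.7), computed from the counts, the deposited gene lengths and the library totals. The other 5040 genes within the same range of control counts had a median FPKM of 1.73 in input and 1.76 in IgG. The coefficient of variation of CPM over the 3 libraries had a median of 16.6% in input and 21.9% in IgG among the members, against 13.4% and 16.8% among those other genes. Those genes share the members' highest control means but not their spread of counts, and members were commoner at low IgG counts. Neither FPKM nor the coefficient of variation was therefore compared at equal counts.

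The bounds compare shares of library counts, set against 3 counts per acRIP library and scaled by TMM. In acRIP, the members' shares lay below those in IgG by at least 12.3-fold to at least 66.0-fold, with a median bound of 18.6-fold. Against input the bounds ran from at least 8.66-fold to at least 68.0-fold, with a median of 16.4-fold. Where a count of 0 stands for up to 3 read pairs, the bounds are smaller, from 6.17-fold to 33.0-fold against IgG and from 4.33-fold to 34.0-fold against input. Per the methods, input RNA was brought to a set concentration, whereas RNA from both precipitations entered the libraries by volume, unmeasured. A loss in RNA amount was therefore not measured, either by these bounds or by those given below for single genes.

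**Figure D2:**
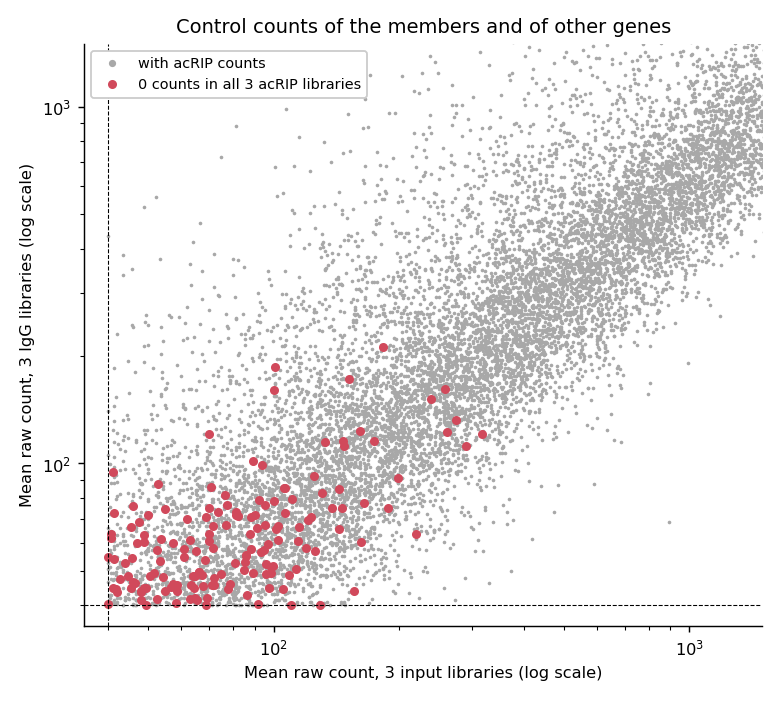
Mean raw count in the 3 IgG libraries against the mean raw count in the 3 input libraries for genes past the floor, both on log scales, with the floor of 40 as dashed lines. The members (red) lie up to 317 counts in input and 212 in IgG, among genes that kept acRIP counts (grey), of which those with higher counts than the axes show are not drawn.

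Counts are given as deposited. Where an order of input and IgG is stated, it is in CPM, since the input libraries were deeper than the IgG libraries. The order in raw counts can differ. The member whose smaller control mean was highest was Gnptab (ENSMUSG00000035311.16, chr10:88379132-88447329 of mm10, plus strand), whose product starts the mannose 6-phosphate tag that sends enzymes to the lysosome. Gnptab had 260, 175 and 115 counts in the input libraries and 135, 231 and 269 in the IgG libraries, or 183 ± 72.9 and 212 ± 69.1 (mean ± SD, n = 3 each). In CPM, every IgG library (9.22 to 14.5) lay above every input library (5.18 to 8.30), and acRIP was at least 66.0-fold below IgG, or 33.0-fold against 3 read pairs. Siah1b (ENSMUSG00000040749.11, chrX:164070705-164076493, minus strand), an E3 ubiquitin ligase, had 282, 188 and 248 counts in input and 136, 194 and 124 in IgG. Siah1b has a close paralog, Siah1a, so its uniquely mapped counts are uncertain. Arfip2, which binds Arf and Rac GTPases, had 317, 258 and 249 counts in input and 127, 160 and 110 in IgG, with every input library above every IgG library in CPM.

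A set of 13 members acts in vitamin D, sterol, lipid, amino acid or one-carbon metabolism, with mean counts from 46.3 to 152 in input and from 41.3 to 173 in IgG. Cyp2r1 (ENSMUSG00000030670.16, chr7:114549682-114562972, minus strand), the main 25-hydroxylase of vitamin D, had 197, 122 and 136 counts in input and 171, 156 and 192 in IgG. Cyp27a1 (chr1:74713574-74737892, plus strand), which hydroxylates the side chain of cholesterol on the way to bile acids and can also hydroxylate vitamin D, had 185, 86 and 128 counts in input and 98, 132 and 114 in IgG. In CPM, every IgG library lay above every input library for both hydroxylases, at 8.30 to 11.7 against 5.54 to 6.29 for Cyp2r1 and at 6.13 to 7.03 against 3.90 to 5.90 for Cyp27a1. As shares of library counts, the hydroxylases were at least 55.5-fold and 36.4-fold below IgG in acRIP, or 27.8-fold and 18.2-fold against 3 read pairs. Naaa, a lysosomal amidase of fatty acid ethanolamides, had 136, 94 and 88 counts in input and 60, 92 and 104 in IgG. The roles were assigned by hand to 81 of the 159 members after the members were known, so their sizes carry no test.

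The mitochondrial release factor Mtrf1 (ENSMUSG00000022022.3, chr14:79397772-79423587, plus strand) had 274, 246 and 254 counts in input and 137, 143 and 206 in IgG. In CPM, input (8.74 to 11.4) and IgG (7.61 to 11.1) overlapped. Mettl18, a histidine methyltransferase of a ribosomal protein, had 196, 122 and 123 counts in input and 130, 78 and 139 in IgG. Mettl15, which methylates mitochondrial 12S rRNA, had 246, 173 and 242 counts in input and 50, 58 and 82 in IgG. In CPM, input and IgG overlapped for Mettl18, and every input library lay above every IgG library for Mettl15. Casp9 (ENSMUSG00000028914.13, chr4:141793612-141815976, plus strand), the caspase that starts the mitochondrial death pathway, had 196, 134 and 154 counts in input and 132, 103 and 134 in IgG, and the apoptosis genes Bmf and Dapk2 were also members.

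Another 11 members belong to the extracellular matrix or its processing, with mean counts from 48.7 to 261 in input and from 40 to 123 in IgG. Lamb3 (ENSMUSG00000026639.18, chr1:193207699-193343878, plus strand), the β3 chain of a basement membrane laminin, had 292, 313 and 178 counts in input and 104, 130 and 134 in IgG. In CPM, every input library of Lamb3 lay above every IgG library. Efemp1, the matrix protein fibulin-3, had 158, 118 and 117 counts in input and 70, 94 and 84 in IgG. Olfml2a had 105, 60 and 112 counts in input and 54, 92 and 91 in IgG, and input and IgG overlapped in CPM. Hapln1, which links hyaluronan to proteoglycans, was among the 6 members whose smaller control mean was exactly 40, with 42, 56 and 50 counts in input and 22, 30 and 68 in IgG.

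Another 10 members act in growth factor or lipid mediator signalling. Bmpr2 (ENSMUSG00000067336.6, chr1:59763400-59879014, plus strand), the type II receptor of bone morphogenetic proteins and with 17983 bases the second longest member, had 112, 94 and 94 counts in input and 90, 200 and 192 in IgG. In CPM, every IgG library (6.14 to 10.6) lay above every input library (3.57 to 4.27).

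Ion channels and solute carriers account for 8 members. Slc35g1 had 108, 94 and 100 counts in input and 148, 201 and 212 in IgG, with every IgG library above every input library in CPM. Slc6a14, an amino acid transporter, had 276, 138 and 184 counts in input and 64, 76 and 134 in IgG, and in CPM input (6.27 to 8.81) and IgG (4.05 to 7.21) overlapped. The voltage-gated potassium channel gene Kcnd3 had 52, 34 and 37 counts in input and 82, 92 and 110 in IgG, with every IgG library above every input library in CPM, and its input level was 0.169 FPKM. Slco2a1, a prostaglandin transporter of 13545 bases, had 138, 78 and 100 counts in input and 31, 49 and 53 in IgG, with every input library above every IgG library in CPM.

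A further 10 members act in DNA replication, chromatin or transcription. Orc1 (ENSMUSG00000028587.18, chr4:108579423-108614833, plus strand), the largest subunit of the complex that marks replication origins, had 95, 83 and 89 counts in input and 86, 81 and 137 in IgG, and in CPM every IgG library (4.31 to 7.37) lay above every input library (3.03 to 4.01). Kdm8, a Jumonji-type hydroxylase, had 170, 102 and 61 counts in input and 40, 142 and 56 in IgG, and the spread between its libraries was wide in both groups. The zinc finger gene Zfp677 had 158, 122 and 152 counts in input and 60, 86 and 108 in IgG, and input and IgG overlapped in CPM.

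Immune genes make up another 11 members, which encode receptors or signalling proteins of immune cells, with mean counts from 47.3 to 148 in input and from 45.7 to 112 in IgG. Sectm1a had 195, 119 and 130 counts in input and 102, 104 and 130 in IgG. Stat6, the transcription factor downstream of interleukin-4, had 182, 107 and 150 counts in input and 55, 81 and 89 in IgG. Ikbkg, the regulatory subunit of the IκB kinase, had 192, 108 and 114 counts in input and 46, 108 and 71 in IgG. Input and IgG overlapped in CPM for Sectm1a and Ikbkg, and for Stat6 they overlapped once TMM scaling was applied. Of the 4 macrophage markers, Cd68 had 62 to 124 counts in IgG and 12, 0 and 0 in acRIP, and Csf1r had 69 to 104 in IgG and 14, 2 and 6 in acRIP. Adgre1 had 28 to 54 counts in IgG and 16 to 28 in acRIP, and Lyz2 had 858 to 1027 in IgG and 928 to 1035 in acRIP. The part of macrophage RNA in the immune members' values was not tested.

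Among the other members, Prune2, the longest with 20297 bases, had 76, 30 and 32 counts in input and 50, 76 and 102 in IgG. Ppfia2, a liprin scaffold of synapses, had 138, 78 and 85 counts in input and 82, 84 and 69 in IgG. Scamp5, a membrane protein of secretory vesicles, had 90, 46 and 74 counts in input and 110, 168 and 86 in IgG. Palm, a membrane-anchored protein of neurons, had 130, 68 and 88 counts in input and 58, 93 and 78 in IgG. In CPM, input and IgG overlapped for Ppfia2 and Palm. Every IgG library lay above every input library for Prune2 (3.41 to 5.49 against 1.36 to 2.43 CPM) and for Scamp5 (4.62 to 8.94 against 2.09 to 3.33 CPM). Syne3, which ties the nuclear envelope to the cytoskeleton, had 186, 149 and 161 counts in input and 46, 108 and 79 in IgG. Mospd1 had 242, 158 and 166 counts in input and 66, 64 and 95 in IgG. Moxd1 had 160, 126 and 90 counts in input and 68, 92 and 116 in IgG. In CPM, input lay above IgG without overlap for Syne3 and Mospd1, and overlapped it for Moxd1.

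Of the genes without an assigned protein, Gm6744, an X-linked processed pseudogene of 543 bases, had 388, 293 and 271 counts in input and 90, 134 and 139 in IgG. BC022960, a transcribed processed pseudogene on the X chromosome, had 324, 255 and 292 counts in input and 90, 108 and 137 in IgG. Gm7745, a transcribed processed pseudogene on chromosome 12, had 248, 128 and 146 counts in input and 94, 122 and 130 in IgG. In CPM, every input library lay above every IgG library for Gm6744 and BC022960, and the counts of all 3 are uncertain because reads shared with a parent gene are not uniquely mapped. The unconfirmed transcript 4930477O15Rik had 94, 110 and 78 counts in input and 78, 98 and 121 in IgG, with every IgG library above every input library in CPM. Beside Gm6744, the shortest members were the lincRNA Gm35514 and the unconfirmed transcript Gm44243. Gm35514, of 352 bases, had 146, 78 and 75 counts in input and 62, 44 and 49 in IgG, and input and IgG overlapped in CPM. Gm44243, of 692 bases, had 71, 31 and 55 counts in input and 16, 41 and 68 in IgG.

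**Figure D3:**
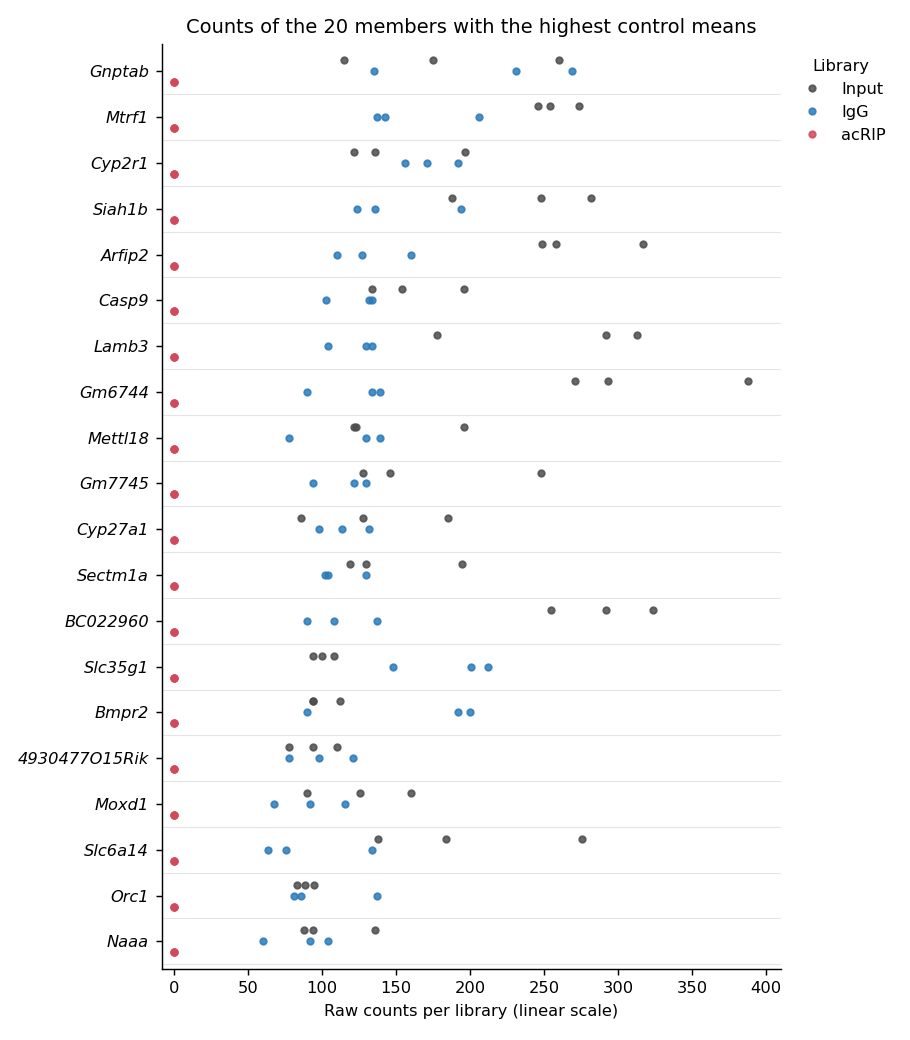
Raw counts per library (linear scale) of the 20 members with the highest value of the smaller control mean, with 3 points each for input (grey), IgG (blue) and acRIP (red). The acRIP points of each gene lie on top of each other at 0, while the lowest control count shown is 60, for Naaa in IgG.

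At the edge of the rule, just inside the floor, Sdr42e1 had 174, 109 and 105 counts in input and 32, 40 and 48 in IgG. Gm10101 had 44, 42 and 34 counts in input and 30, 68 and 66 in IgG, and Gm9867 had 30, 46 and 44 in input and 34, 53 and 34 in IgG. In CPM, every IgG library lay above every input library for Gm10101. Just outside it, also with 0 counts in every acRIP library, were Sox18, a transcription factor of endothelial cells (80, 94 and 83 counts in input and 41, 46 and 32 in IgG), Fam49a (68, 43 and 41, and 26, 68 and 24) and Lnx1 (47, 22 and 49, and 34, 53 and 64). With Sox18, Fam49a and Lnx1 included, 110 genes had 0 counts in every acRIP library and a smaller control mean from 30 to under 40. On the other side, 27 genes past the floor held 1 or 2 counts over the 3 acRIP libraries together, and 130 held at most 10.

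The members were set beside 17 complexes and families to which 20 of them belong, listed by hand after the members were known and given as a description. Of the other 53 genes listed, 43 passed the floor in both controls and 42 of those 43 had counts in all 3 acRIP libraries. The exception was Apaf1, the partner of Casp9 in the apoptosome, with 72 to 98 counts in IgG and 2, 0 and 4 in acRIP. Control counts of the other listed genes were often higher than those of the members. Of all 14766 genes past the floor with acRIP counts, 14617 had them in all 3 acRIP libraries. The share among the listed genes was near this background, so it is no trait of these complexes.

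In the origin recognition complex, Orc2 to Orc6 had 181 to 810 counts per acRIP library, against 0 for Orc1, and 300 to 1249 per IgG library against 81 to 137 for Orc1. In the IκB kinase, Chuk had 296 to 408 counts per acRIP library and Ikbkb 140 to 168, against 0 for Ikbkg. Ikbkb, with 206 to 264 counts in IgG, and Ikbkg, with 46 to 108, differed in their control counts as well.

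Among the receptors of bone morphogenetic proteins and activins, both Bmpr2 and the type I receptor Acvr1 were members. Bmpr1a had 490 to 568 counts in acRIP and 205 to 345 in IgG, and Acvr2a had 207 to 283 in acRIP. Acvr2b had 33, 61 and 54 counts in acRIP at 63 to 79 in IgG, fewer IgG counts than the 90 to 200 of Bmpr2, which had none in acRIP. Among the sirtuins, a family of NAD-dependent deacylases, Sirt5 had 116 to 136 counts in acRIP and 56 to 80 in IgG, while Sirt6 had 0 in acRIP and 42 to 88 in IgG. The NF-κB subunit Relb likewise had 28, 48 and 28 counts in acRIP at 12 to 36 in IgG, while Nfkb2 had 0 at 46 to 78. Acvr2b, Sirt5 and Relb were picked after their values were seen. Listed genes with low IgG counts went both ways, since Ppfia3 and Abcg5, given below, had 0 in acRIP. The part of the control counts in the zeros was not tested.

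Of the vitamin D hydroxylases, Cyp2r1 and Cyp27a1 were members, Cyp27b1 had at most 2 counts in any library, and Cyp24a1 had 8 to 10 counts in IgG and 0, 4 and 0 in acRIP. Of the liprin-α genes, Ppfia2 and Ppfia4 were members, Ppfia3 had 2 to 10 counts in IgG and 0 in acRIP, and Ppfia1 kept 93 to 108 counts in acRIP. Abcg8 was a member, and Abcg5, its partner in sterol export, had 10 to 18 counts in IgG and 0 in acRIP.

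**Figure D4:**
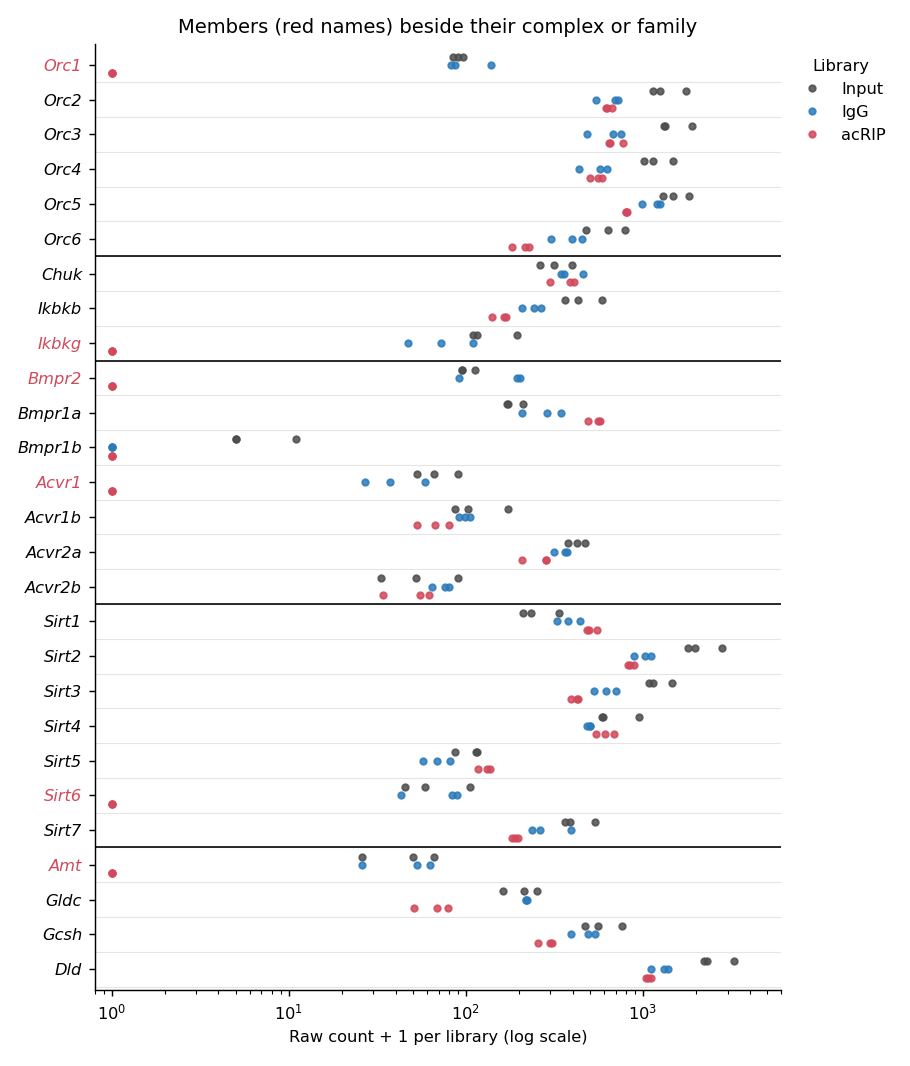
Raw count + 1 per library on a log scale for the genes of 5 complexes or families, separated by black lines, with 3 points each for input (grey), IgG (blue) and acRIP (red), and with the names of members in red. Members have their acRIP points at a count of 0, drawn at 1, while Orc2 to Orc6 have 181 to 810 acRIP counts.

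In features that the rule did not use, the members were compared with the other genes past the floor, without a test. Of the members, 126 (79.2%) are annotated as protein coding, against 80.3% of the 14766 genes past the floor with acRIP counts and 67.8% of the 5040 such genes within the members' range of control counts. A further 16 (10.1%) are lincRNAs (6.56% and 11.4%), 4 (2.52%) are pseudogenes (6.52% and 9.38%) and 5 (3.14%) are unconfirmed transcripts (0.853% and 1.81%). The median length of merged exons was 3672 bases, against 3550 and 3103, and the median number of exons in the transcript with most exons was 7, against 7 and 6. Cytidine, the base that carries the mark, made up a median of 24.5% of the merged exons (quartiles 22.2% and 26.8%), against 23.7% and 24.1%, and GC content was 49.8%, against 48.4% and 48.9%. Exons of another gene on the opposite strand overlapped 35 members (22.0%), against 28.0% and 25.9%. Since the use of strand in counting is not stated, those 35 are uncertain, among them Gnptab, Arfip2, Casp9, Orc1, Ppfia2, Ikbkg, Stat6, Mettl15, Slco2a1 and Kcnd3.

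By chromosome, 13 members (8.18%) lie on the X chromosome, against 3.45% of the genes past the floor with acRIP counts and 4.84% of those within the members' range, and 13 (8.18%) lie on chromosome 10, against 4.77% and 4.72%. These chromosomes were singled out after the counts of all chromosomes were seen, and no test was made. The X-linked members include Siah1b, Ikbkg, Slc6a14 and Mospd1 as well as the pseudogenes Gm6744 and BC022960. No member lies on the Y chromosome. It holds 42 (0.284%) of the other genes past the floor and 0.615% of those within the members' range, and 0 is near these small shares.

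Since libraries are primed at the poly(A) tail, the last 500 bases of the longest annotated transcript were searched on the sense strand. Such a window existed for 158 members. The polyadenylation signal letters AATAAA were present in the last 50 bases of 90 of them (57.0%), against 55.4% of the genes past the floor with acRIP counts and 53.5% of those within the members' range. A run of at least 8 adenosines lay in 16 of the windows (10.1%), against 11.0% and 11.5%. The letters TGTGCG, which the UG-binding protein TDP43 is known to recognise as UGUGCG, were present in 6 of the windows (3.8%), against 4.35% and 4.19%, and in 3.68% of the 40145 windows of all genes. The windows around 5 of these 6 sites are printed in full because they show which member transcripts hold the recognition letters, with TGTGCG in capitals, 5′ to 3′ on the transcript strand, from GENCODE transcripts of release vM21 on mm10. The site of the lincRNA C430042M11Rik lies too close to the transcript end for a window of 30 bases.
Sgk1: caactttttttgTGTGCGataaaccaattt
Ints5: ttctctacaagtTGTGCGaggttaaactga
Elovl1: tggaagtcaggcTGTGCGctcacttgtgtc
Cdh18: ttccgaggaggaTGTGCGagagaatgtggt
Gm26901: tgtgtgtgtgtgTGTGCGcgcacggtgcac

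The sites of Sgk1, a serum-induced kinase (chr10:21999837-21999866, plus strand), Ints5, a subunit of the Integrator complex (chr19:8897740-8897769, plus strand), and Elovl1, a fatty acid elongase (chr4:118432562-118432591, plus strand), lie in annotated 3′ untranslated regions. The site of Cdh18, a cadherin (chr15:23473983-23474012, plus strand), lies in a coding exon, and that of Gm26901 (chr1:7379018-7379047, minus strand) in an exon of a noncoding RNA, beside a TG repeat. In Sgk1 the letters stand 45 bases before the transcript end and in Ints5 137 bases. A match of letters is a description and not a binding site.

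The contrast of IgG with input is the one the rule used least, since it set a floor on both groups but not their ratio. It was tested with edgeR's quasi-likelihood test over all 9 libraries, so the acRIP zeros that chose the members entered the shared estimate of spread. A gene was called where p, adjusted by Benjamini-Hochberg, was under 0.05 and the change exceeded 2-fold. All 159 members were among the 22510 genes tested. Of these, 12 members (7.55%) were higher in IgG than in input, against 13.5% of all tested genes, and 3 (1.89%) were lower, against 7.22%. Floors in both groups limit the ratio, and among the 14925 tested genes past the floor the shares were 10.4% and 2.96%, and among the 5199 within the members' range of control counts 8.58% and 3.08%. The members' shares were therefore near or below the background. The median log2 fold change of the members was 0.20 (quartiles -0.13 and 0.60), against -0.01 over all tested genes and 0.05 over the other genes within the same range. With upper quartile scaling, which moved the median of all tested genes from -0.01 to -0.11, the members' median was 0.10.

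The floor used the same input and IgG counts, so the values of single members are given as a description. Kcnd3 had the largest rise in IgG over input among the members, with a log2 fold change of 1.78 (standard error 0.32, adjusted p = 2.1e-05 from edgeR). Its input mean of 41 lay just above the floor. Slc35g1 rose by 1.43 (standard error 0.22, adjusted p = 1.9e-06 from edgeR) and Scamp5 by 1.37 (standard error 0.29, adjusted p = 0.000204 from edgeR). The other members called higher were Mcur1, Prune2, Nudt10, Bmpr2, Usp51, Cyth4, Scn1a, Tspan9 and Sult4a1, with log2 fold changes from 1.11 to 1.36. The members called lower in IgG were 2610044O15Rik8, Mettl15 and Sdr42e1. 2610044O15Rik8, with 201, 132 and 135 counts in input and 28, 58 and 46 in IgG, fell by 1.27 on the log2 scale (standard error 0.28, adjusted p = 0.000335 from edgeR). Mettl15 fell by 1.25 (standard error 0.24, adjusted p = 6.8e-05 from edgeR). Sdr42e1, just inside the floor, fell by 1.11 (standard error 0.30, adjusted p = 0.00223 from edgeR).

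**Figure D5:**
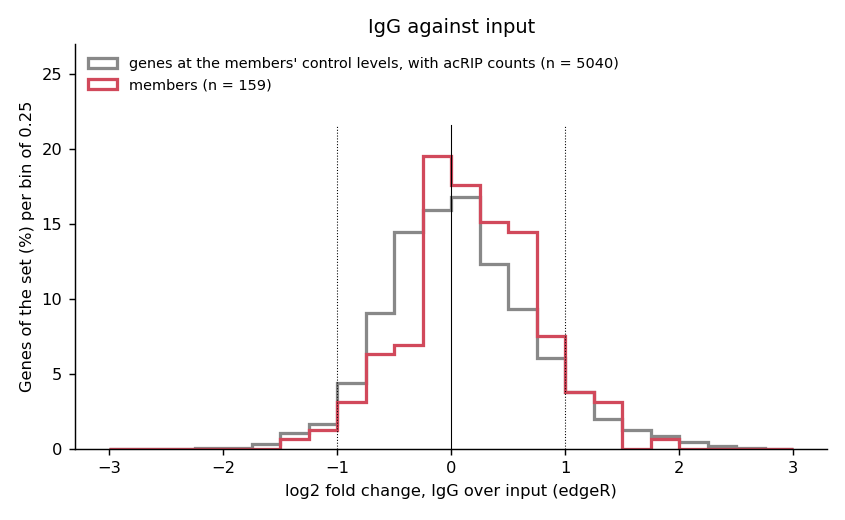
Distribution of the log2 fold change of IgG over input (edgeR, horizontal axis) as a percentage of each set per bin of 0.25, for the 159 members (red) and for the 5040 genes with acRIP counts in the same range of control counts (grey), with dotted lines at the 2-fold thresholds. The medians are 0.20 and 0.05, and the largest value among members is 1.78.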

How the data were processed

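The authors deposited counts of uniquely mapped reads per gene, without normalization, and each gene's length in bases of merged exons. Per the labels and methods, reads were trimmed with Trim Galore 0.6.7, mapped to mm10 with STAR 2.7.10a and counted with featureCounts 2.0.2. Whether counting used strand, single reads or pairs, and which annotation release, is not given in the sources used here. Of the 55401 identifiers, 55141 were matched to GENCODE vM21 (mm10), which gave names, biotypes and exons. Coordinates are those of the deposited table, and 155 of the 159 members have the same coordinates in vM21.

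The deposited counts entered edgeR 4.0.16 (R 4.3.3; filterByExpr, TMM, glmQLFit and glmQLFTest, 1 mean per group over 9 libraries, no block). DESeq2 1.42.0, other scalings and filters, leaving out each library, and the replicate number as a block were alternatives. The script was tested on simulated data. Bounds were set against 3 counts per acRIP library on TMM-scaled library sizes. Figures were drawn with Python 3.11.15.

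The members, lists and tests were chosen with earlier results of these data known. Members given with values in every library were the 20 with the highest smaller control mean, those at the edges of the floor, with the 3 highest and 3 lowest log2 fold changes of IgG over input, the 3 longest and 3 shortest, and 10 further protein-coding members. Hapln1 and the genes of complexes were named after their values were seen.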

Additional observations from a re-analysis of the deposited data

How the results depend on the processing

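The number of members depended on the limits of the rule. It was 505 with a floor of 20, 23 with a floor of 80, 83 with every control library at 40 or more, and 81 with counts scaled to the smallest library total. With 1 library left out it ranged from 139 to 179, and without any 1 acRIP library all 159 members were kept, by construction. The count of 15 members called in IgG against input ranged from 14 to 19 with 1 library left out. It was 12 higher and 3 lower with DESeq2, with RLE scaling, without a filter, with the replicate block and with only the input and IgG libraries. The members called lower ranged from 3 to 5 (5 without Input replicate 1 or without IgG replicate 3). Members called higher ranged from 11 to 16. The members' median log2 fold change was 0.10 with upper quartile scaling and 0.17 without a filter, and ranged from 0.15 to 0.23 with 1 library left out. The cause of these shifts was not tested. No clear pairing of the libraries by replicate number was seen, though correlations over 3 libraries per group cannot exclude one. Deviations from the group means of same-numbered libraries correlated at -0.00659 to 0.0352 over the 3 pairs of groups. Of 6 libraries, 4 (input and IgG), 3 (input and acRIP) and 2 (IgG and acRIP) correlated best with their own number. With the replicate block, 15 members were called and the median was 0.17. The 6 log2 fold changes given for single genes kept their direction and their call in every alternative that was run. Depth limits the bounds, since 3 counts are 0.161 to 0.187 CPM in an acRIP library.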
